A study of Rattus norvegicus with 15 samples.

Results

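Potassium channel genes were taken from a table of rat lung gene expression by their symbols, those that begin with Kcn, letters and a digit. The table held 91 such symbols among 22250 genes, and 43 of them reached 0.5 FPKM in at least 5 of the 15 libraries. FPKM count fragments relative to transcript length and to the mapped total, so levels can be compared between genes. The 43 genes comprised 13 pore-forming subunits of voltage-gated channels (Kv), 7 accessory subunits of these, 9 inward rectifiers (Kir), 7 two-pore-domain channels (K2P) and 7 subunits of calcium- or sodium-activated channels.

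Lung RNA was sequenced in 5 libraries from normal control rats, 5 from COPD rats and 5 from WDD rats, all labelled wild type. The COPD rats had been given lipopolysaccharide (LPS) and smoke by the tracheal route, a model of chronic obstructive pulmonary disease (COPD). The WDD rats had been given the same and also Wendan Decoction (WDD), a Chinese herbal formula, into the stomach. Sources used here do not state strain, age, doses, duration or pooling of animals. Nothing in them says that each library is 1 rat, so a p-value reflects the spread between libraries, which may be technical.

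A potassium channel lets potassium ions leave the cell down their gradient, which holds the membrane potential negative. Kv channels open on depolarisation, Kir channels pass current best near the resting potential, K2P channels carry the background leak, and KCa channels open when cytosolic calcium rises. In the lung these currents set the tone of pulmonary arteries and airway muscle, provide the driving force for ion and fluid transport across the epithelium, and shape calcium entry in lymphocytes and macrophages.

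Of the 43 genes, 14 were at or above 0.5 FPKM in all 15 libraries. All 5 control libraries reached it for 40 of the genes, all 5 WDD libraries for 31 and all 5 COPD libraries for 16. Kcnj12, Kcnj3, Kcnmb1, Kcnh4, Kcne5, Kcnn1 and Kcne4 reached it in under 5 libraries outside the control group and so met the rule only with their control libraries. Kcnmb1 and Kcne5 also needed their WDD libraries to meet it. Of the 48 symbols under the minimum, 37 never reached 0.5 FPKM. Kcnh1, Kcnj5 and Kcng2 lay just outside with 4 libraries each, and no gene met it in exactly 5. Kcnma1, the pore of the large-conductance calcium-activated (BK) channel, had at most 0.33 FPKM in any library, whereas its accessory subunits Kcnmb1, Kcnmb2 and Kcnmb4 were among the 43.

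Whole libraries differed between the groups. Transcripts of the 13 mitochondrially encoded genes took 8.11% ± 1.94 of all FPKM in control, 44.9% ± 12.4 in COPD and 21.7% ± 2.90 in WDD libraries (SD, n = 5 each; exact permutation p = 0.00794, two-sided, for each pair, the smallest that 5 against 5 allows). The median log2(FPKM + 1) of 31 long housekeeping transcripts minus that of 38 short ones was -1.69 ± 0.466 in control libraries. It was -3.78 ± 0.430 in COPD and -3.55 ± 0.284 in WDD libraries. The exact permutation p was 0.00794 for control against either group and 0.341 for WDD against COPD. This measure moves with RNA quality, whose part in the results was not tested. Neutrophil markers summed to 165 to 249 FPKM in control, 14637 to 50226 in COPD and 109 to 682 in WDD libraries. Of 12 tested, 11 were called higher in COPD, beside 7.88% of all genes. Markers of alveolar type 2 cells, which define lung tissue, summed to 16638 to 25378, 3107 to 14406 and 19708 to 23089.9 FPKM in the same order. Relative depth lay between 0.879 and 1.11 times that of control 2. In bulk tissue, fewer cells of a type and less RNA per cell cannot be told apart.

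The highest potassium channel levels changed order between the groups. In control lungs Kcnj15 led with 47.3 ± 15.3 FPKM (mean ± SD, n = 5), followed by Kcnk1 with 30.2 ± 3.31, Kcne2 with 19.3 ± 3.32 and Kcnip3 with 13.8 ± 2.24. Kcnk1 exceeded Kcne2 without overlap, while Kcnj15 and Kcnk1 overlapped. In COPD lungs the first places went to Kcne3 with 11 ± 5.15 FPKM, Kcns3 with 10.5 ± 6.45, Kcnn4 with 10.3 ± 4.63 and Kcnk1 with 10.3 ± 6.71, and each of these overlapped its neighbour. In WDD lungs the order was Kcnk1 with 22.9 ± 1.71, Kcne2 with 17.9 ± 3.48, Kcns3 with 12.1 ± 0.758, Kcne3 with 10.9 ± 2.44 and Kcnj15 with 10.5 ± 1.84 FPKM. There the step from Kcne2 to Kcns3 was the one without overlap among these.

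**Figure D1:**
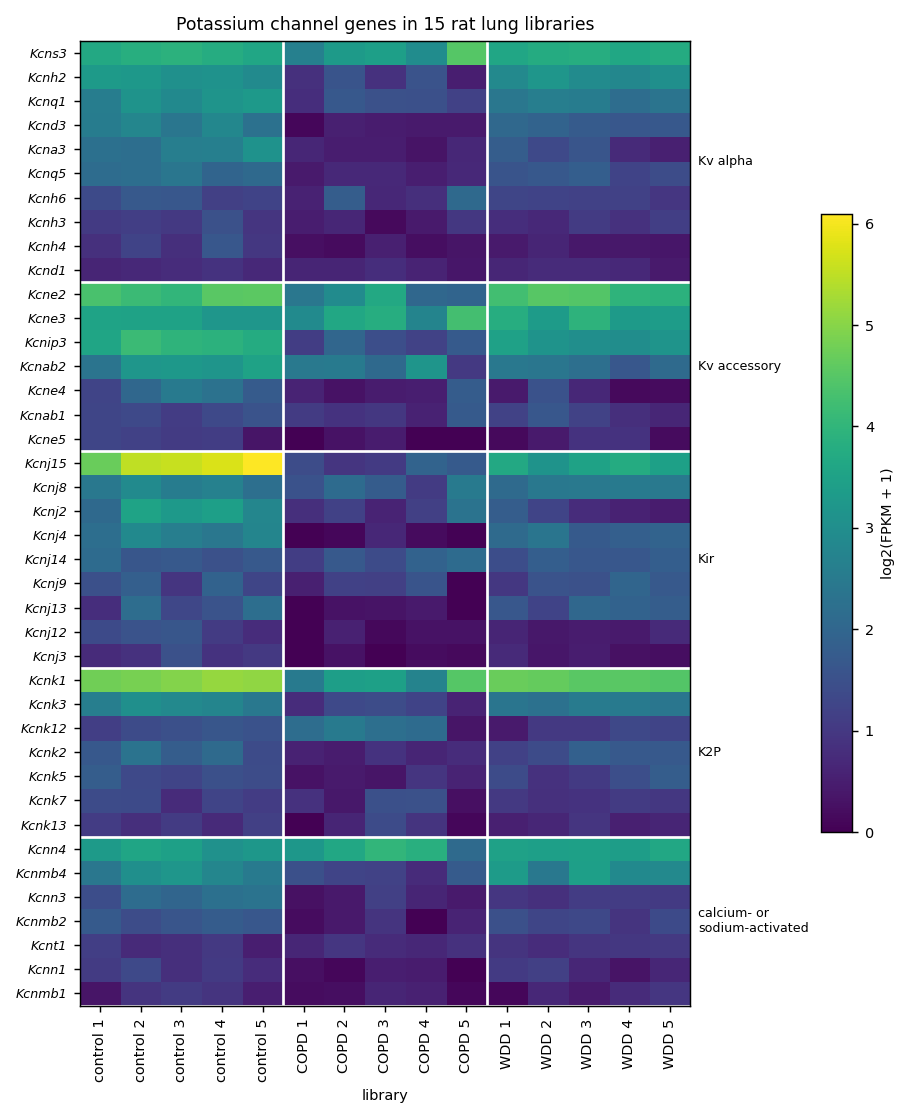
Level of 40 of the 43 potassium channel genes in each of 15 libraries, as log2(FPKM + 1) in colour, with genes in rows by class and libraries in columns by group. Most rows are darker in the 5 COPD columns than in the 5 control columns, and Kcnj15 falls from the brightest row in control to a dark one in COPD.

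The first comparison, COPD against control lungs, asks how exposure to LPS and smoke changed these genes. No potassium channel gene was called higher in COPD (7.88% of all genes were), 30 of the 43 were called lower (65.8% of all genes were) and 13 passed in neither direction (limma, adjusted p under 0.05 over 14132 genes). The share lower was thus close to the background. The median difference in log2(FPKM + 1) was -0.93 over the 43 genes and -0.76 over all genes tested. In 23 genes every COPD library lay below every control library, a pattern that 51.3% of all genes showed, and in 0 genes every COPD library lay above (3.79% of all genes). At an unadjusted p under 0.05, 0 were higher and 32 lower, beside 1187 and 9462 of all 14132 genes. Without the 7 genes that met the minimum only with control libraries, 24 of 36 were lower. On this scale the 10 largest falls were those of Kcnj15, Kcnj4, Kcnip3, Kcnd3, Kcnh2, Kcna3, Kcnj2, Kcne2, Kcnq1 and Kcnk3. With a pseudocount of 0.1 in place of 1, Kcnj13 (-3.21) and Kcnn3 (-2.50) passed Kcne2 (-1.91), Kcnq1 (-2.18), Kcnk3 (-2.32) and Kcnj2 (-2.44).

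Part of this shift was common to most genes. Scaling each library by its median ratio to the others moved the median of all genes from -0.76 to -0.06. With that scaling 25 potassium channel genes were lower (32.3% of all genes) and 5 were higher (28.7%), namely Kcnk12, Kcne3, Kcnn4, Kcnj14 and Kcnt1, and the median of the 43 was -0.63. Quantile normalisation left 14 lower and 7 higher, beside 4029 and 3894 of all 14132 genes. Among the calls lost were those of Kcnj2 (-0.82, adjusted p = 0.0609) and Kcnmb4 (-0.44, adjusted p = 0.155).

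**Figure D2:**
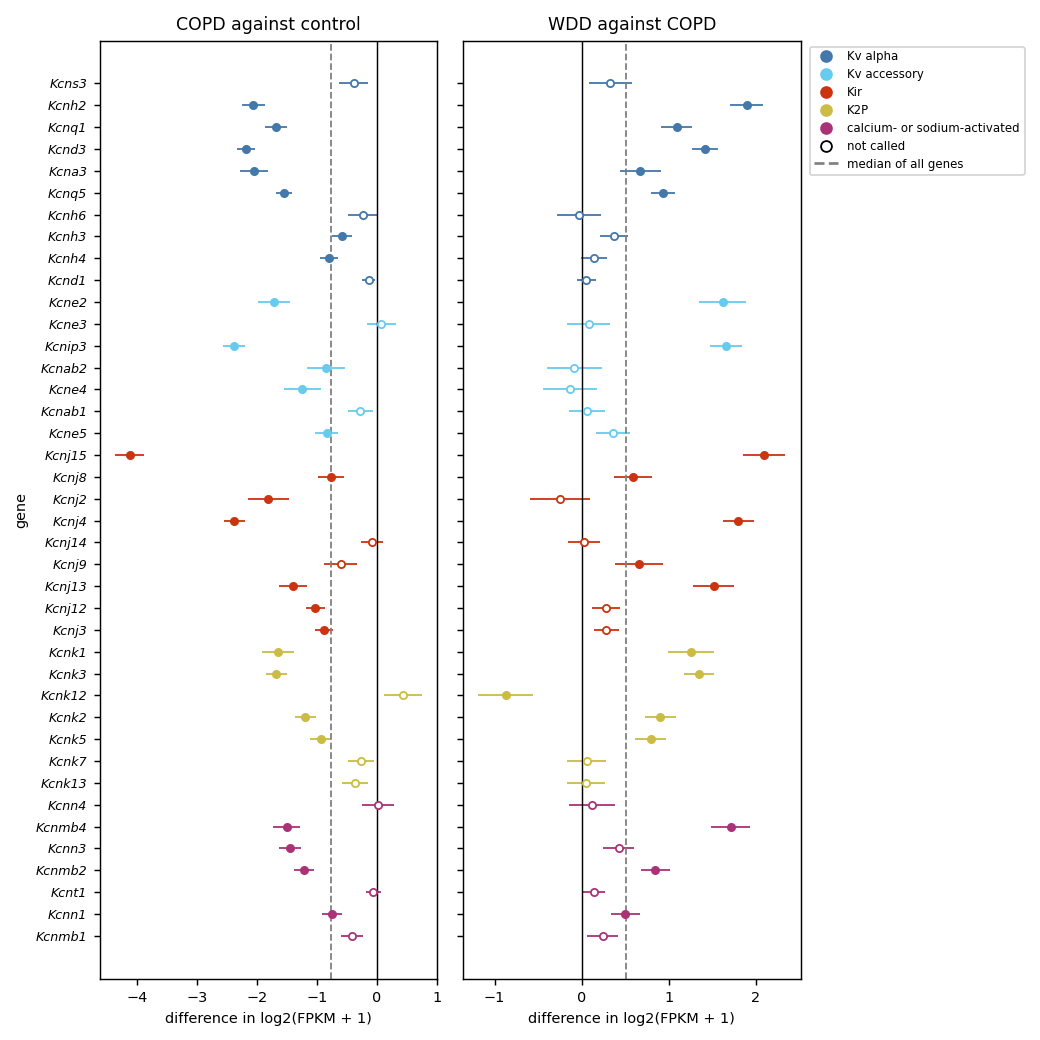
Difference in log2(FPKM + 1) for 40 of the 43 potassium channel genes (points, coloured by class; bars are the standard error), COPD against control on the left and WDD against COPD on the right. Filled points passed an adjusted p under 0.05, and the dashed line is the median of all genes, -0.76 on the left and 0.51 on the right. Kcnj15 stands farthest left, at -4.12, and Kcnk12 is the one filled point left of 0 on the right.

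Sequences upstream of 5 genes are shown to let the 4 largest falls that have an entry be read beside Kcne3, the most abundant gene of COPD lungs, which did not pass the test. They are the 250 bases before the RefSeq transcription start on build GRCr8, 5′ to 3′ on the gene's strand, in lower case, with a GC box (GGGCGG on either strand) in capitals. They come from chr11:48070700-48070949 on the plus strand (Kcnj15, ENSRNOG00000001656), chr7:112954548-112954797 on the minus strand (Kcnj4, ENSRNOG00000013869), chr3:135195411-135195660 on the minus strand (Kcnip3, ENSRNOG00000014152), chr2:195626066-195626315 on the plus strand (Kcnd3, ENSRNOG00000014686) and chr1:163935785-163936034 on the plus strand (Kcne3, ENSRNOG00000017054).
Kcnj15: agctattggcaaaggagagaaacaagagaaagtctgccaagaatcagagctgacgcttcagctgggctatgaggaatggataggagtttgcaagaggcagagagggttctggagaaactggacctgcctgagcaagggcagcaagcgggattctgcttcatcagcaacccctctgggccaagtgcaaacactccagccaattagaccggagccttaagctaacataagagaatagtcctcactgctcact
Kcnj4: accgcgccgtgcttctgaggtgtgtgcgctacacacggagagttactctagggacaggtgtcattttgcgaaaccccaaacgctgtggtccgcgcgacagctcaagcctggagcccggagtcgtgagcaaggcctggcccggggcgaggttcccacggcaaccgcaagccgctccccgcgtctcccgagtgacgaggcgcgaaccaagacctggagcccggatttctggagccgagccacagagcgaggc
Kcnip3: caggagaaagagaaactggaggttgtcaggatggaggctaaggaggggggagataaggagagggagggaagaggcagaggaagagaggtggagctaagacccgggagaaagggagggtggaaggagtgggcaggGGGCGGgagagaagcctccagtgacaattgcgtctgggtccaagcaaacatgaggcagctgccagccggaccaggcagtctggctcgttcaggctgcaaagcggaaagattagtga
Kcnd3: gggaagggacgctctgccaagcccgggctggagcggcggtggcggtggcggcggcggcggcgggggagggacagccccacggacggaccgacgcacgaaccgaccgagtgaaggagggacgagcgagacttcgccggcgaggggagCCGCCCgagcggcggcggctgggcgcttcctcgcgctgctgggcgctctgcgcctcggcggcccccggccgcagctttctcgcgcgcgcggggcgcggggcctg
Kcne3: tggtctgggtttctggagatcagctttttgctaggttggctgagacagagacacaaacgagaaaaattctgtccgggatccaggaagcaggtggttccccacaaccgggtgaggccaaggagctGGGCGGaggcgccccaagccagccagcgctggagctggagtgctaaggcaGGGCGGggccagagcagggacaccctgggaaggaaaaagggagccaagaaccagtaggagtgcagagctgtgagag

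The 4 upstream sequences of falling genes had little in common in composition. Kcnj15 held 3 CG dinucleotides in 250 bases and Kcnip3 held 6, while Kcnj4 held 26 and Kcnd3 held 43. Kcne3 held 7. RefSeq promoters matched 28 of the 43 genes by symbol. The GC box was found in 12 of the 28 (42.9%), against 30.5% of 33469 rat promoters of the same length. The AP-1 motif TGANTCA was in none of the 28, against 6.34% of all, and TATAAA was in Kcnj13 alone, against 12.9% of all, both strands searched. The median number of CG dinucleotides was 16 in the 18 matched genes called lower in COPD, 7 in the 10 matched genes that were not called and 5 in all promoters. These matches describe the letters in the window and were not tested for binding.

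Among the pore-forming Kv subunits, 10 of 13 were lower in COPD and none was higher, beside 65.8% and 7.88% of all genes. The class median was -1.06, beside -0.76 over all genes. After median-of-ratios scaling 8 of the 13 were lower and 0 higher, beside 32.3% and 28.7% of all genes. Among those called lower, Kcnh4 met the expression minimum only with its control libraries, so its low level in COPD follows from that. Kcnd3 encodes Kv4.3, which carries a fast, inactivating current. Its levels were 4.94, 5.96, 4.28, 6.08 and 3.83 FPKM in control, 0.0710, 0.438, 0.379, 0.368 and 0.362 in COPD and 3.16, 2.83, 2.38, 2.12 and 2.18 in WDD libraries. The 3 groups did not overlap, with COPD lowest and WDD between, and COPD 1 lay far below the other COPD libraries. The difference between COPD and control was -2.18 ± 0.15 (SE, log2 scale; limma adjusted p = 5.78e-09).

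Kcnh2, the hERG channel, which repolarises heart and smooth muscle, had 9.0, 8.47, 7.37, 7.67 and 6.54 FPKM in control and 0.801, 2.01, 0.836, 1.96 and 0.414 in COPD libraries. In WDD libraries it had 6.28, 8.23, 6.62, 6.01 and 7.16 FPKM, within or just below the control range, while all COPD libraries were far below both. It differed by -2.06 ± 0.19 between COPD and control (adjusted p = 1.26e-07) and by 1.89 ± 0.19 between WDD and COPD (adjusted p = 1.24e-06).

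Kcna3 encodes Kv1.3, the channel that sets the membrane potential of T cells. It measured 3.77, 3.59, 5.12, 5.20 and 7.67 FPKM in control, 0.580, 0.400, 0.391, 0.252 and 0.589 in COPD and 2.46, 1.53, 2.02, 0.650 and 0.447 in WDD libraries. WDD 1 to 3 were above every COPD library, but WDD 4 and 5 fell within or near the COPD range. The difference was -2.04 ± 0.23 between COPD and control (adjusted p = 8.58e-07). Of the T cell markers, 10 of 11 were also lower in COPD (65.8% of all genes), and 9 after median-of-ratios scaling (32.3%). Their sum was 156 to 216 FPKM in control, 23.8 to 66.9 in COPD and 157 to 215 in WDD libraries, with no marker at 0 in every library. In WDD libraries the T cell sum lay inside the control range, and Kcna3 was below every control library. Single markers moved both ways between WDD and control. Of the 11, Cd3d and Cd3g were called higher and Cd4 and Cd28 lower (6.01% and 30.5% of all genes), and 7 were not called. The part of T cell RNA in the Kcna3 differences of COPD and of WDD from control was not tested.

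Kcnq1, the pore of a slow channel that also recycles potassium at the basolateral face of epithelia, had 5.03, 7.70, 6.39, 7.92 and 8.70 FPKM in control, 0.728, 2.19, 1.85, 1.82 and 1.27 in COPD and 4.35, 5.08, 4.86, 3.54 and 4.07 in WDD libraries. Control and COPD did not overlap, and the highest WDD library just exceeded the lowest control one. Kcnq1 differed by -1.68 ± 0.18 between COPD and control (adjusted p = 4.64e-07). The related Kcnq5 differed by -1.55 ± 0.13 in the same comparison (adjusted p = 5.58e-08) and was thus lower in COPD as well.

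Kcns3 makes no channel alone and modifies the current of the Kv pores it joins, among them those of pulmonary artery muscle. It had 11.8, 13.1, 14.2, 12.6 and 11.2 FPKM in control and 5.33, 9.03, 9.93, 6.76 and 21.6 in COPD libraries and did not pass (-0.38 ± 0.24, adjusted p = 0.166). This rests on COPD 5, which was above every control library, while the other 4 COPD libraries were below all of them. Without COPD 5, Kcns3 was called lower at -0.66 (adjusted p = 6.83e-04), and with median-of-ratios scaling of all libraries its difference turned to 0.48 (adjusted p = 0.13). Kcnh3 and Kcnh4 were lower in COPD as well, and Kcnh6 and Kcnd1 passed in no comparison.

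Of the 7 accessory subunits of Kv channels, 5 were lower in COPD and none was higher, beside 65.8% and 7.88% of all genes. After median-of-ratios scaling, 3 were lower and 1 was higher, beside 32.3% and 28.7% of all genes. Among those called lower, Kcne4 and Kcne5 met the expression minimum only with their control libraries, so their low levels in COPD follow from that. Kcnip3, a calcium-binding protein that attaches to Kv4 channels such as that of Kcnd3, had 10.9, 16.9, 14.7, 14.0 and 12.5 FPKM in control, 1.16, 3.04, 1.75, 1.29 and 2.28 in COPD and 10.3, 7.80, 7.11, 6.89 and 7.84 in WDD libraries. No groups overlapped, and the order was that of Kcnd3. The difference between COPD and control was -2.38 ± 0.18 for Kcnip3 (adjusted p = 1.50e-08), beside -2.18 ± 0.15 for Kcnd3.

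The single-span Kcne subunits bind Kcnq1 and other pores and set their gating. Kcne2 had 19.2, 16.8, 15.2, 22.4 and 22.7 FPKM in control, 4.32, 6.67, 11.8, 3.13 and 2.87 in COPD and 18.2, 21.7, 20.9, 14.7 and 14.1 in WDD libraries. COPD lay below both other groups, which overlapped each other, and the difference from control was -1.72 ± 0.27 (adjusted p = 2.32e-05). Kcne3, which keeps Kcnq1 open in secretory epithelium, had 10.6, 10.4, 10.5, 8.24 and 8.27 FPKM in control, 6.49, 11.6, 12.8, 5.73 and 18.4 in COPD and 12.8, 9.17, 14.3, 9.05 and 9.34 in WDD libraries. COPD libraries of Kcne3 were both the lowest and the highest of the 15, and the difference from control was 0.08 ± 0.24 (adjusted p = 0.788). With median-of-ratios scaling it was 0.93 and passed (adjusted p = 0.00567).

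Kcne4, which inhibits Kv1 and Kcnq1 currents, had 1.37, 3.13, 4.71, 3.88 and 2.34 FPKM in control and 0.513, 0.226, 0.373, 0.427 and 2.42 in COPD libraries. COPD 5 reached the control range, while the other 4 COPD libraries lay below it. It was called lower (-1.24 ± 0.31, adjusted p = 0.00194), and it no longer passed with median-of-ratios scaling (-0.71, adjusted p = 0.084). Kcne4 met the expression minimum only with its control libraries, so that its low level in COPD follows from how it entered the set. Kcnab2, a cytosolic beta subunit of Kv1 channels, had 4.07, 8.22, 8.46, 8.03 and 10.4 FPKM in control and 4.52, 4.70, 3.24, 8.0 and 1.02 in COPD libraries. The groups overlapped and the call was close to the threshold (-0.85 ± 0.32, adjusted p = 0.0235). Without COPD 5 the difference of Kcnab2 was -0.54 (adjusted p = 0.0558), without control 5 it was -0.74 (adjusted p = 0.0602), and it turned to 0.15 with quantile normalisation.

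The inward rectifiers held the largest change in the set. Of 9 Kir genes, 7 were lower in COPD and none was higher, beside 65.8% and 7.88% of all genes. With median-of-ratios scaling 6 were lower and 1 was higher, beside 32.3% and 28.7% of all genes. Among those called lower, Kcnj12 and Kcnj3 met the expression minimum only with their control libraries, so their low levels in COPD follow from that. Kcnj15 encodes Kir4.2, a channel of epithelial cells. It had 24.9, 44.7, 46.6, 53.0 and 67.3 FPKM in control, 1.68, 0.910, 1.05, 2.83 and 2.29 in COPD and 11.7, 7.69, 10.3, 12.5 and 10.1 in WDD libraries. The groups were fully separate, with WDD between the other two. Kcnj15 differed by -4.12 ± 0.24 between COPD and control (adjusted p = 2.50e-09), and 0.113% of all genes tested had a lower difference. With median-of-ratios scaling it was -3.36. Markers of alveolar type 1 cells, an epithelial type, were lower in COPD in 11 of 11 (65.8% of all genes), and in 10 after median-of-ratios scaling (32.3%). Their sums were 3541 to 4783 FPKM in control, 627 to 1733 in COPD and 3025 to 4218 in WDD libraries. No marker of that list was at 0 in every library. Its WDD sums overlapped those of control, while Kcnj15 in WDD libraries was below every control library. In other epithelial lists, 8 of 10 alveolar type 2, 6 of 8 ciliated and 2 of 7 club and goblet markers were called lower. The numbers called higher in COPD were 0, 0 and 1. After median-of-ratios scaling 7, 3 and 2 were lower and 2, 0 and 2 higher. The part of any epithelial type in the Kcnj15 difference was not tested.

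Kcnj4 encodes Kir2.3, a strong rectifier. It had 3.59, 6.37, 5.07, 4.36 and 5.85 FPKM in control, 0, 0.0803, 0.589, 0.135 and 0.0273 in COPD and 3.33, 4.19, 2.32, 2.6 and 2.81 in WDD libraries. COPD was separate from both other groups, COPD 1 was listed at 0, and COPD 3 stood above the other COPD libraries. The difference from control was -2.38 ± 0.17 (adjusted p = 1.13e-08).

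Kcnj2, or Kir2.1, another strong rectifier and a channel of endothelium and muscle, had 3.22, 10.6, 8.72, 9.76 and 5.99 FPKM in control, 0.769, 1.27, 0.513, 1.23 and 4.02 in COPD and 2.46, 1.37, 0.71, 0.487 and 0.379 in WDD libraries. The WDD libraries were all below control, and one COPD library, COPD 5, was within the control range. Kcnj2 differed by -1.81 ± 0.34 between COPD and control (adjusted p = 1.64e-04). Endothelial markers were lower in COPD in 9 of 11 tested (65.8% of all genes), and in 5 after median-of-ratios scaling (32.3%). Their sums were 845 to 1153 FPKM in control, 242 to 618 in COPD and 789 to 931 in WDD libraries, and Cldn5 was at 0 in every library. The part of endothelial RNA in the differences of Kcnj2 and of the endothelial channel gene Kcnn3 was not tested.

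Kcnj8, or Kir6.1, is the pore of the vascular ATP-sensitive channel, whose regulatory subunit is Abcc9. It had 4.40, 6.51, 4.88, 5.4 and 3.69 FPKM in control, 1.88, 3.35, 2.42, 1.10 and 4.68 in COPD and 3.33, 4.40, 4.48, 4.59 and 4.56 in WDD libraries, and all groups overlapped. It was called lower in COPD at -0.76 ± 0.22 (adjusted p = 0.00507), equal to the median of all genes at 2 decimals, and with quantile normalisation it turned to 0.29. Abcc9 differed by -1.85 ± 0.16 (adjusted p = 7.11e-08). Markers of smooth muscle cells and pericytes, where both genes are known to be used, were lower in COPD in 12 of 12 (65.8% of all genes). After median-of-ratios scaling 9 were lower (32.3%). Their sums were 580 to 967 FPKM in control, 193 to 298 in COPD and 336 to 677 in WDD libraries. No marker of that list was at 0 in every library, and its part in the result was not tested.

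Kcnj13, or Kir7.1, an epithelial channel of low conductance, had 0.748, 3.51, 1.44, 1.94 and 3.58 FPKM in control and 0, 0.226, 0.249, 0.356 and 0 in COPD libraries, where COPD 1 and 5 were listed at 0. WDD libraries had 2.15, 1.36, 3.08, 2.78 and 2.47 FPKM and lay within the control range. The difference between COPD and control was -1.39 ± 0.24 (adjusted p = 5.93e-05). Of the other Kir genes, Kcnj12 and Kcnj3 were lower, and Kcnj9 and Kcnj14 did not pass.

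Of 7 K2P genes, 4 were lower in COPD and none was higher, beside 65.8% and 7.88% of all genes. After median-of-ratios scaling 4 were lower and 1, Kcnk12, was higher, beside 32.3% and 28.7% of all genes. Kcnk1, or TWIK-1, a background channel of epithelia, had 26.5, 27.5, 30.1, 34.2 and 32.8 FPKM in control, 4.65, 9.59, 9.97, 5.65 and 21.5 in COPD and 25.2, 24.0, 22.1, 22 and 20.9 in WDD libraries. Every COPD library was below control, but COPD 5 stood far above the others of its group and overlapped WDD. The difference from control was -1.64 ± 0.27 (adjusted p = 3.58e-05).

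Kcnk3, or TASK-1, an acid-sensitive channel that holds the resting potential of pulmonary artery muscle, had 5.09, 7.16, 6.33, 5.84 and 4.38 FPKM in control, 0.697, 1.55, 1.66, 1.33 and 0.517 in COPD and 4.17, 3.83, 4.81, 4.65 and 4.26 in WDD libraries. COPD was separate from both other groups. Kcnk3 differed by -1.67 ± 0.17 (adjusted p = 3.03e-07) from control, and Kcnk2, the stretch-gated TREK-1, by -1.19 ± 0.18 (adjusted p = 1.60e-05).

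Kcnk12, or THIK-2, had the largest positive difference between COPD and control in the set, and it did not pass. It had 1.20, 1.62, 1.83, 2.08 and 1.90 FPKM in control, 3.50, 4.74, 3.68, 3.41 and 0.268 in COPD and 0.357, 1.02, 1.02, 1.49 and 1.39 in WDD libraries. COPD 1 to 4 were above every other library and COPD 5 was below all of them. The difference was 0.44 ± 0.31 (adjusted p = 0.213), and without COPD 5 it was 0.83 and passed (adjusted p = 4.22e-04). COPD 5 also had the lowest neutrophil marker sum of its group, 14637 FPKM, against 15119 in COPD 1 and 26819.7 to 50226 in COPD 2 to 4. Whether the makeup of COPD 5 set its Kcnk12 level was not tested.

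Of the 7 genes of calcium- and sodium-activated channels 4 were lower in COPD and none was higher, beside 65.8% and 7.88% of all genes. After median-of-ratios scaling 4 were lower and 2 higher, beside 32.3% and 28.7% of all genes. Kcnn1, among those called lower, and Kcnmb1 met the expression minimum only with their control libraries, so their low levels in COPD follow from that. Kcnmb1, the beta-1 subunit of the BK channel, narrowly missed the threshold at -0.41 ± 0.18 (adjusted p = 0.0517). Kcnn4 encodes KCa3.1, the intermediate-conductance channel of lymphocytes, red cells and secretory epithelia. It had 9.06, 11.1, 10.1, 7.50 and 8.42 FPKM in control, 8.34, 11.5, 15, 13.4 and 3.32 in COPD and 10.1, 9.77, 10.1, 9.55 and 11.5 in WDD libraries. COPD libraries lay on both sides of the control range, with COPD 5 the lowest of all 15. The difference was 0.02 ± 0.27 (adjusted p = 0.947). With median-of-ratios scaling it was 0.86 and passed (adjusted p = 0.00576), and without COPD 1 and COPD 5 it was 0.49 (adjusted p = 0.0035).

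Kcnmb4, the beta-4 subunit of the BK channel, had 4.37, 7.15, 8.15, 5.97 and 4.56 FPKM in control, 1.81, 1.36, 1.30, 0.671 and 2.36 in COPD and 9.19, 4.39, 9.86, 6.37 and 6.29 in WDD libraries. COPD was separate from both other groups, and WDD libraries reached above the control range. The difference between COPD and control was -1.50 ± 0.23 (adjusted p = 1.75e-05). Kcnn3, or SK3, a small-conductance channel of endothelium, had 1.73, 3.42, 2.93, 3.74 and 4.0 FPKM in control, 0.208, 0.340, 1.21, 0.560 and 0.347 in COPD and 0.967, 0.791, 1.12, 1.12 and 1.05 in WDD libraries. Control was separate from both exposed groups, and Kcnn3 differed by -1.45 ± 0.18 between COPD and control (adjusted p = 2.48e-06).

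**Figure D3:**
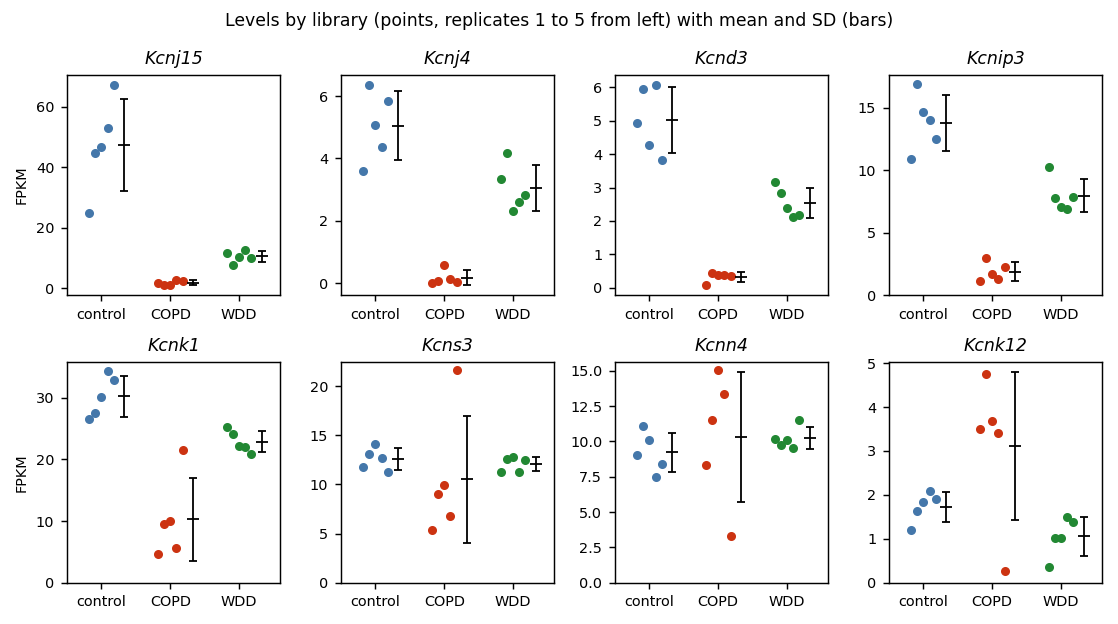
FPKM of 8 potassium channel genes in each library (points, replicates 1 to 5 from left; bars are mean ± SD, n = 5 per group). In Kcnj15, Kcnd3 and Kcnip3 the WDD libraries lie between COPD and control without overlap, and in Kcnk1, Kcns3, Kcnn4 and Kcnk12 the library COPD 5 stands apart from the other COPD libraries.

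COPD 5 was the highest of the COPD libraries in 13 of the 43 genes and the lowest in 12. COPD 1 was the highest in 0 and the lowest in 18, and it had the largest mitochondrially encoded share, 65.0%. Ties at 0 were counted for COPD 1 alone. These were Kcne5, shared with COPD 4 and COPD 5, Kcnj13, shared with COPD 5, and Kcnj3, shared with COPD 3. Without COPD 5, 31 potassium channel genes were lower and 1 was higher, beside 9418 and 1378 of all 14132 genes. Without both COPD 1 and COPD 5 there were 31 lower and 2 higher, Kcnk12 and Kcnn4, beside 8892 and 1668 of all genes.

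The second comparison, WDD against COPD lungs, asks what changed when the decoction was added to the exposure. Of the 43 potassium channel genes, 20 were called higher in WDD (55.1% of all genes were) and 1 was called lower (6.35% of all genes), with 22 passing in neither direction. The median difference was 0.37 over the 43 genes and 0.51 over all genes. In 13 genes every WDD library lay above every COPD library, as in 39.1% of all genes, and in 0 genes every WDD library lay below (4.22%). With median-of-ratios scaling 15 were higher (22.5% of all genes) and 2 lower (20.3%), and the medians were 0.19 and 0.05.

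On this scale Kcnj15 rose most, by 2.09 ± 0.24 (adjusted p = 4.13e-06), followed by Kcnh2 and then Kcnj4, which rose by 1.80 ± 0.17 (adjusted p = 7.28e-07). The order rests on the pseudocount and the scaling. With a pseudocount of 0.1 Kcnj4 (3.91) and Kcnj13 (3.44) exceeded Kcnj15 (2.61), and with median-of-ratios scaling Kcnj4 was at 1.66 and Kcnj15 at 1.62. The Kv4 pore and its partner both rose, Kcnip3 by 1.66 ± 0.18 and Kcnd3 by 1.42 ± 0.15. Kcnmb4 rose by 1.71 ± 0.23 (adjusted p = 1.37e-05), Kcne2 by 1.62 ± 0.27 and Kcnj13 by 1.52 ± 0.24. Of the K2P channels, Kcnk3 rose by 1.34 ± 0.17 and Kcnk1 by 1.26 ± 0.27. Kcnk1 no longer passed with median-of-ratios scaling (0.66, adjusted p = 0.0699), while Kcnk3 did (0.97).

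By class, 6 of 13 Kv pore subunits, 2 of 7 Kv accessory subunits, 5 of 9 Kir, 4 of 7 K2P and 3 of 7 calcium- or sodium-activated channel genes were higher in WDD than in COPD, beside 55.1% of all genes. Calls near the threshold moved with single libraries. Kcnj9, an inward rectifier that works with other Kir subunits, rose by 0.66 ± 0.28 (adjusted p = 0.0473), and this call was lost with median-of-ratios scaling (adjusted p = 0.309). Kcna3 rose by 0.67 ± 0.23 (adjusted p = 0.019), but the adjusted p was 0.0595 without WDD 1, 0.0528 without WDD 3 and 0.166 with median-of-ratios scaling. Kcnj8 rose by 0.59 ± 0.22 (adjusted p = 0.0281), and leaving out COPD 1, COPD 4 or any of WDD 2 to 5 gave an adjusted p of 0.0511 to 0.082, and median-of-ratios scaling one of 0.762. Kcns3 did not pass (0.33 ± 0.24, adjusted p = 0.246), but did at 0.61 without COPD 5 (adjusted p = 0.002). Kcnn3 did not pass either (0.42 ± 0.18, adjusted p = 0.0527), but did at 0.56 without COPD 3 (adjusted p = 0.00913) and with an unchanged difference of 0.42 without control 1 (adjusted p = 0.0256).

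Kcnk12 was the gene called lower in WDD than in COPD, at -0.87 ± 0.31 (adjusted p = 0.0242). Without COPD 5 its difference was -1.26 (adjusted p = 1.76e-05). Without COPD 1, COPD 2, COPD 3, COPD 4 or WDD 1 it missed the threshold, with differences of -0.71 to -0.81 and adjusted p of 0.0523 to 0.0673, and it also missed it with a pseudocount of 0.1 (adjusted p = 0.0747) or with only the 2 groups in the fit (adjusted p = 0.0536). After median-of-ratios scaling Kcnk12 was at -1.28 (adjusted p = 0.00693).

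The third comparison, WDD against control lungs, shows where the WDD libraries stood relative to unexposed lung. No gene was called higher (6.01% of all genes were), 17 were called lower (30.5% of all genes) and 26 passed in neither direction. The median difference was -0.33 over the 43 genes and -0.23 over all genes. In 14 genes every WDD library lay below every control library, as in 30.3% of all genes, and in 0 genes above (6.35%). Kcnj12, Kcnj3, Kcnh4 and Kcne4 are among the 17, and all but Kcne4 are among the 14. They met the expression minimum only with their control libraries, so that low levels in WDD follow from how they entered the set. At an unadjusted p under 0.05, 0 were higher and 19 lower, beside 1236 and 5179 of all 14132 genes. With median-of-ratios scaling 12 were lower (16.5% of all genes) and 0 higher (14.8%).

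On the log2(FPKM + 1) scale the largest falls in this comparison belonged to 2 inward rectifiers, Kcnj2 with -2.06 ± 0.34 (adjusted p = 2.79e-04) and Kcnj15 with -2.02 ± 0.24 (adjusted p = 3.66e-05). Kcne4 differed by -1.37 (adjusted p = 0.00279) and Kcna3 by -1.37 (adjusted p = 3.19e-04). With a pseudocount of 0.1 Kcne4 (-2.56) came between Kcnj2 (-2.89) and Kcnj15 (-2.11). Kcne4 had 0.358, 1.89, 0.592, 0.118 and 0.126 FPKM in WDD libraries, so that WDD 4 and 5 were the lowest of the group in Kcnj2, Kcne4 and Kcna3 alike. These 2 libraries were also the most similar pair of the series within a group (r = 0.992 across genes), and their neutrophil marker sums, 616 and 682 FPKM, exceeded those of WDD 1 to 3, 109 to 290. They also had higher sums of airway ciliated markers (127 and 129 against 58.0 to 63.6 FPKM), club and goblet cell markers (37087 and 38645 against 17078 to 22081) and smooth muscle and pericyte markers (671 and 677 against 336 to 426). The part of this makeup in the 3 genes was not tested. Averaging WDD 4 and 5 as 1 library left 16 of the 43 genes lower, beside 3672 of all 14132 genes.

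Kcnn3 (-1.02 ± 0.18, adjusted p = 4.47e-04) and Kcnd3 (-0.76 ± 0.15) were lower in WDD than in control as well. Median-of-ratios scaling ended the calls of Kcnip3, Kcnj4, Kcnq1 and Kcnab2 in this comparison, with adjusted p of 0.0549 to 0.153. Kcnab2 was called lower at -0.93 ± 0.32 (adjusted p = 0.0291), and this call was lost on leaving out any of control 2 to 5, WDD 4 or WDD 5, with adjusted p of 0.0561 to 0.0793. None of the 7 K2P genes was called by limma, and 0 passed at an unadjusted p under 0.05. In Kcnk1, however, every WDD library (at most 25.2 FPKM) lay below every control library (at least 26.5), as in 30.3% of all genes. Kcnk12 was -0.43 in the fit of all libraries (adjusted p = 0.308) and passed without COPD 5 (adjusted p = 0.0425), which enters through the shared estimate of spread.

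Seen over the 3 comparisons, which share their libraries, 19 of the 43 genes were lower in COPD than control and higher in WDD than COPD, as were 49.2% of all genes. Of these, 11 were not called between WDD and control (30.5% of all genes): Kcne2, Kcnh2, Kcnj13, Kcnj8, Kcnk1, Kcnk2, Kcnk3, Kcnk5, Kcnmb2, Kcnmb4 and Kcnn1. The other 8 were still lower than control (18.2% of all genes), among them Kcna3, Kcnd3, Kcnip3, Kcnj15, Kcnj4, Kcnq1 and Kcnq5. A further 11 were lower in COPD and not called between WDD and COPD (16.4% of all genes), among them Kcnab2, Kcne4, Kcne5, Kcnh3, Kcnh4, Kcnj12, Kcnj2, Kcnj3 and Kcnn3. Of these 11, 5 met the expression minimum only with their control libraries (Kcne4, Kcne5, Kcnh4, Kcnj12 and Kcnj3), so that low levels in both exposed groups follow from how they entered the set, and 6 remain without them. Another 11 were called in no comparison (17.7% of all genes): Kcnab1, Kcnd1, Kcne3, Kcnh6, Kcnj14, Kcnk13, Kcnk7, Kcnmb1, Kcnn4, Kcns3 and Kcnt1. The remaining 2 were called in WDD against COPD alone, Kcnj9 higher and Kcnk12 lower. No gene was called in the same direction in both COPD against control and WDD against COPD.

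Shares within a library do not move with its scale, but can move with a change that differs between long and short transcripts. The part of such a change in the shares was not tested. The 43 genes summed to 212 to 278 FPKM in control, 61.9 to 117 in COPD and 151 to 178 in WDD libraries. Inward rectifiers made up 28.0% ± 4.5 of that sum in control, 10.6% ± 2.17 in COPD and 16% ± 1.91 in WDD libraries (SD, n = 5 each), and no groups overlapped. Kcnj15 alone made up 17.8%, 2.01% and 6.38% in the same order. Without Kcnj15 the inward rectifier share was 12.4%, 8.82% and 10.3%. The ratio of Kcnj15 to Kcnk1, the 2 leading genes of control lungs, was 1.54 ± 0.396 in control, 0.234 ± 0.187 in COPD and 0.460 ± 0.0891 in WDD libraries.

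The calcium- and sodium-activated class made up 8.89% ± 1.00 of the sum in control, 15.8% ± 5.51 in COPD and 13.3% ± 1.35 in WDD libraries. COPD 5 was at 6.36%, below all controls, and the other 4 COPD libraries were at 15.6% to 19.7%. Kv accessory subunits made up 21.6%, 27.3% and 25.7%, Kv pore subunits 24.4%, 27.8% and 24.7%, and K2P genes 17.1%, 18.5% and 20.3% in control, COPD and WDD libraries. These shares are descriptions without a test.

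**Figure D4:**
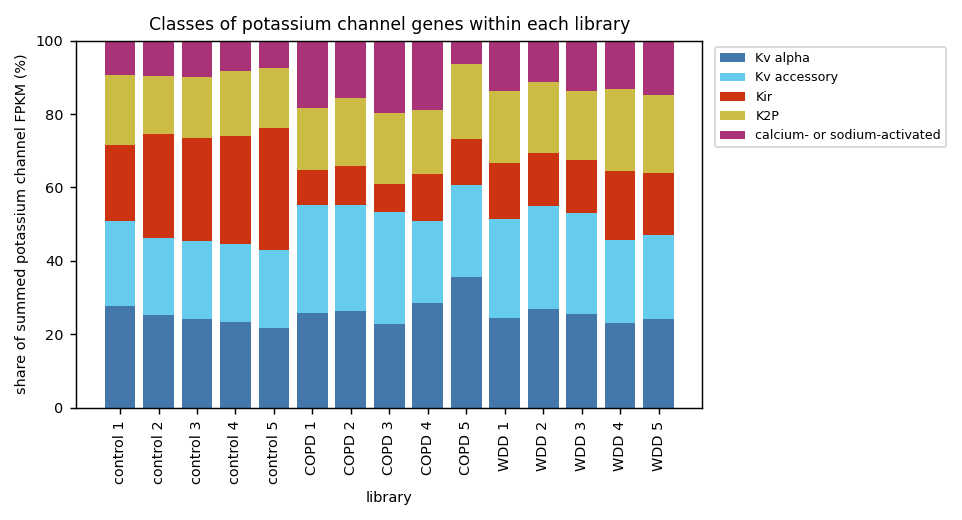
Share of the summed FPKM of the 43 potassium channel genes held by each of 5 classes (stacked bars, percent), 1 bar per library. The inward rectifier segment spans 20.8% to 33.3% in control, 7.60% to 12.8% in COPD and 14.3% to 18.9% in WDD libraries.

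**Figure D5:**
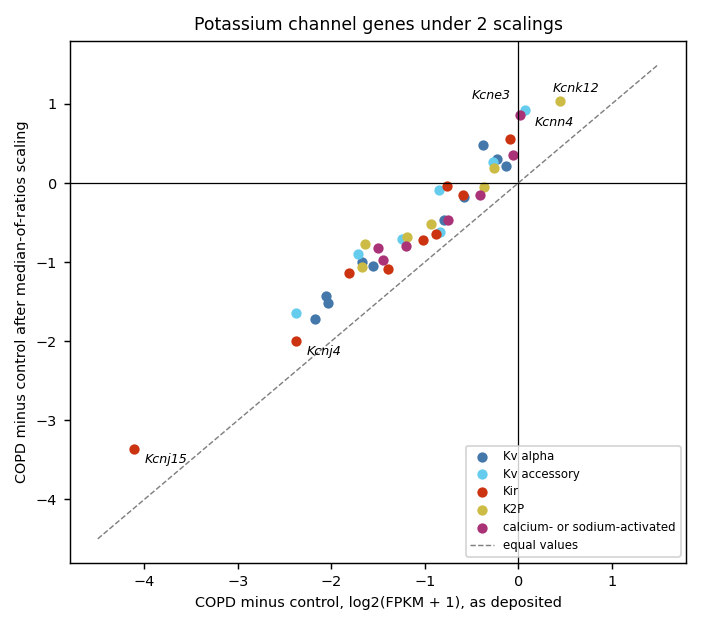
Difference between COPD and control in log2(FPKM + 1) for 40 of the 43 potassium channel genes as deposited (x axis) and after median-of-ratios scaling (y axis), coloured by class, with the line of equal values dashed. All points lie above the line, and Kcnj15 and Kcnj4 stay lowest on both axes.

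Partners, pumps and regulators of potassium transport were read from lists. Of 15 channel partners listed, 5 were tested and all 5 were lower in COPD, beside 65.8% of all genes (4 after median-of-ratios scaling, beside 32.3%), with Dpp10 and Lrrc38 at 0 in every library. Kcnrg, a suppressor of Kv channel assembly, differed by -2.02 ± 0.27 (adjusted p = 5.45e-06), and Amigo1, an adhesion protein that joins Kv channels, by -1.67 ± 0.18 (adjusted p = 4.26e-07). In WDD against COPD 4 of the 5 were higher (55.1% of all genes), and against control 3 were lower (30.5%). After median-of-ratios scaling these counts were 3 (22.5%) and 1 (16.5%).

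Pumps and cotransporters carry potassium into or out of the cell together with other ions. Of 17 tested, 12 were lower and 2 higher in COPD than in control, near the shares of all genes, 65.8% and 7.88%. After median-of-ratios scaling 7 were lower and 4 higher, beside 32.3% and 28.7% of all genes. Atp1b1, the beta-1 subunit of the sodium-potassium pump, differed by -2.85 ± 0.23 (adjusted p = 2.47e-08). The pump modulator Fxyd5 was higher by 1.09 ± 0.41 (adjusted p = 0.0242). Another modulator, Fxyd6, was lower, at -1.78 ± 0.27. In WDD against COPD 10 were higher and 1 was lower (55.1% and 6.35% of all genes), and in WDD against control 2 were higher and 4 lower (6.01% and 30.5%). After median-of-ratios scaling the counts were 7 and 2 (22.5% and 20.3%), and 3 and 2 (14.8% and 16.5%).

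Of 23 channel regulator entries tested, 19 were lower and 1 was higher in COPD (65.8% and 7.88% of all genes). After median-of-ratios scaling, however, the counts were 7 and 3, beside 32.3% and 28.7%. Calm2 entered under 2 gene identifiers, both called lower before that scaling and neither after it. The caveolar coat protein Cav1 differed by -2.52 ± 0.27 (adjusted p = 3.99e-07), and the kinase anchors Akap9 and Akap5 by -2.08 ± 0.16 and -2.07 ± 0.28. In WDD against COPD 14 regulator entries were higher and 0 lower, beside 55.1% and 6.35% of all genes. After median-of-ratios scaling 6 were higher and 5 lower there, beside 22.5% and 20.3%.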

How the data were processed

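Total RNA from rat lung was extracted with TRIzol and made into libraries with an NEBNext Ultra kit, per the labels' protocols. The submitters' processing notes name cutadapt, HISAT2, StringTie and the build Rnor_6.0. Strand use, tool versions and annotation release: not given in the sources used here. The deposited values are FPKM computed by the authors, per the file headers. Total read numbers were not analysed here, and depth was read from steps between low values, which gives no counting interval.

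Values were analysed as log2(FPKM + 1), a scale that understates the change of low genes. Genes with at least 0.5 FPKM in at least 5 libraries were kept, 14132 in all. One limma 3.58.1 fit in R 4.3.3 (trended eBayes) covered the 15 libraries with group as the term. Tests were two-sided, Benjamini-Hochberg adjustment ran over the 14132 genes of each comparison, and an adjusted p under 0.05 counted as a call. Symbols name genes, and 168 symbols occur more than once. The scripts were tested on simulated data. Python 3.11.15 with pandas 2.3.3, numpy 2.4.6 and matplotlib 3.10.9 handled tables and figures.

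The potassium channel genes and all lists were chosen with earlier results of these data known. Genes described singly are the 3 of highest mean FPKM in each class, the 10 largest changes among called genes in each comparison, and 3 from each pathway list by size of change. Kcnj9, Kcnk2, Kcnmb1, Kcnq5 and other genes named in counts fall outside that rule and were chosen after their values were seen. A few genes are not reported here by name and are left out of the figures by gene, but stay in all counts, medians and sums. Libraries were not paired by number: of 15 same-number pairs, 1 had a correlation of deviations above 0.1. Alternatives were other pseudocounts, filters, scalings, weights, a replicate block and leaving out libraries. Leaving out COPD 1 and COPD 5 together and averaging WDD 4 and WDD 5 were chosen after seeing the data. Promoters are from RefSeq, build GRCr8.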

Additional observations from a re-analysis of the deposited data

Results flagged for a closer look

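In 5 of 63 groups of 5 libraries examined, 1 library stood apart from the others by a gap of over 0.71 of the group's range on the log2(FPKM + 1) scale, the 95% limit of Dixon's test, which chance passes in about 1 of 20 groups. Values are given in FPKM. Kcnd3 was at 0.071 FPKM in COPD 1, below 0.362 to 0.438 in the other COPD libraries. Kcnj4 was at 0.589 FPKM in COPD 3, above 0 to 0.135 in the others. Kcne4 was at 2.42 FPKM in COPD 5, above 0.226 to 0.513. Kcnk12 was at 0.268 FPKM in COPD 5, below 3.41 to 4.74. Kcnj8 was at 3.33 FPKM in WDD 1, below 4.40 to 4.59 in the other WDD libraries.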

How the results depend on the processing

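The count of potassium channel genes lower in COPD than control was 30 and ranged from 30 to 32 on leaving out single libraries. It was 14 with quantile normalisation, beside 4029 of all 14132 genes. The count higher, 0, was 5 with median-of-ratios scaling and 7 with quantile normalisation (4062 and 3894 of all genes). It was 2 with library weights and 2 without COPD 1 and COPD 5 (1610 and 1668 of all genes). On leaving out single libraries it was 0 to 1 (1 without COPD 5, beside 1378 of all genes). In WDD against COPD, 20 were higher, 17 to 21 on leaving out single libraries and 12 with quantile normalisation (2996 of all genes). The 1 gene lower there became 0 with a pseudocount of 0.1 or only the 2 groups compared. The count was 2 with median-of-ratios scaling, 5 with quantile normalisation and 2 without COPD 1 and COPD 5 (2866, 2547 and 1366 of all genes). On leaving out single libraries it was 0 to 1 (0 without WDD 1 or without any of COPD 1 to 4). In WDD against control, 17 were lower, and 16 to 18 on leaving out single libraries. The count was 7 with quantile normalisation, 12 with median-of-ratios scaling and 14 with a pseudocount of 0.1 (2430, 2332 and 3769 of all genes). It was 20 with only the 2 groups compared (5796 of all genes). It was also 20 with scaling without mitochondrially encoded genes (5631), and 22 with library weights (6402).

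Median-of-ratios scaling turned the sign of 8 of the 43 genes in COPD against control, 10 in WDD against COPD and 7 in WDD against control, among them Kcns3 in all 3 comparisons, Kcne3 (-0.52) and Kcnn4 (-0.47) in WDD against COPD, and Kcnh2 (0.08) and Kcne2 (0.16) in WDD against control, none of them called with either scaling. Among the genes described singly that were called under the reported or the alternative setting, signs turned in COPD against control for Kcnab2 (0.15 with quantile normalisation), Kcnj8 (0.29, and -0.029 in WDD against COPD, with quantile normalisation), and Kcnn4 in WDD against COPD, from 0.12 to -0.35 without COPD 1 and COPD 5 (adjusted p = 0.0332); the causes were not tested. With a replicate block, 32 were lower in COPD than control, 21 higher in WDD than COPD and 17 lower in WDD than control; pairing by number is not supported by the libraries, and no count moved by over 1.5 times. A minimum of 1 FPKM left 35 of the genes, with 26 lower in COPD, beside 8749 of 13172 genes. Depth is known only relative to control 2, so levels near 0 carry an unknown counting error.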

Other observations

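Other ion channel families were measured the same way and are given as values. In COPD against control, 3 of 4 sodium channel genes (Scn symbols), 10 of 11 calcium channel genes (Cacn), 9 of 10 chloride channel genes (Clcn and Ano) and 11 of 13 TRP channel genes were called lower and none was called higher (0 also at an unadjusted p under 0.05), beside 65.8% and 7.88% of all genes (limma, adjusted p under 0.05). Their median differences were -1.24, -1.0, -1.46 and -1.19, beside -0.93 for the potassium channel genes. After median-of-ratios scaling 3, 5, 7 and 6 were lower and 0, 0, 0 and 2 higher, beside 32.3% and 28.7% of all genes. In WDD against COPD 3, 6, 7 and 7 were called higher, and 1 TRP gene was called lower, beside 55.1% and 6.35% of all genes. After median-of-ratios scaling 2, 2, 4 and 4 were higher there and 0, 1, 0 and 3 lower, beside 22.5% and 20.3%.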
